A study of Homo sapiens with 6 samples.

Results

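A set of 10 well-known target genes of the glucocorticoid receptor was followed in MCF10A cells grown with hydrocortisone and other growth factors or without them. They were FKBP5, ZBTB16, TFCP2L1, TSC22D3, SGK1, DUSP1, KLF9, CRISPLD2, ANGPTL4 and SERPINA3, taken by name as genes that hydrocortisone is known to raise. The choice was made with earlier results of these data known. All 10 were among the 19198 genes listed, and all 10 were among the 16988 genes tested. The 10 genes did not move together. FKBP5, ZBTB16 and TFCP2L1 fell 16.3-fold, 61.7-fold and 20.5-fold in mean level after depletion, and limma, the main test, called no target gene higher. Over all genes tested it called 1.97% lower and 4.36% higher. The other 7 were not called by limma, and for 6 of those 7 the values with and without growth factors overlapped. Over all genes, every depleted sample lay below every control for 12.1% and above for 13.5%. DESeq2 also called SERPINA3, KLF9 and TSC22D3 lower and CRISPLD2 higher. Over all genes DESeq2 called 4.87% lower and 7.6% higher.

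MCF10A is an established, non-tumorigenic line of human mammary epithelial cells. Both groups were grown in the same basal medium with 5% horse serum. The 3 samples grown with growth factors, named control here, also received 10 µg/ml insulin, 20 ng/ml EGF, 100 ng/ml cholera toxin and 0.5 µg/ml hydrocortisone. The 3 growth factor-depleted samples received none of these 4 additions, so the loss of hydrocortisone cannot be told apart from the loss of insulin, EGF or cholera toxin. The study's methods give an upper limit for the time of depletion, and the day on which these 6 samples were collected is not stated. The labels list replicates 1 to 3 in each condition while the design text gives 2, and they do not say that replicates were separate cultures, so the p-values measure the spread between these samples. All samples come from 1 cell line, and the steroid content of the horse serum was not measured.

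Cortisol, given to cultures as hydrocortisone, binds the glucocorticoid receptor in the cytoplasm, where the empty receptor is held by Hsp90 and its partner proteins. The bound receptor enters the nucleus, sits as a dimer on a palindromic DNA element, and raises genes that restrain inflammation, store energy and feed back on the receptor itself. It also lowers many cytokine genes, largely by acting on NF-kB and AP-1. In the mammary epithelium glucocorticoids support differentiation and milk production, and hydrocortisone is a routine supplement of MCF10A medium.

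The glucocorticoid response element has a pair of 6-base half-sites, AGAACA and TGTTCT, separated by 3 bases of any kind. It reads the same on both strands, so 1 search covers both. The hg38 sequence of each gene with the 10 kb upstream of it was searched, as a search added after the values had been seen. The matches are shown because they are the receptor's known kind of binding sequence within the genes whose RNA was measured. Each is printed in the direction of transcription with 10 flanking bases on each side, and capitals mark the half-sites. The start of a gene is here its outermost annotated start. Some genes, FKBP5 and TSC22D3 among them, also have annotated starts farther in, from which distances differ. The first, in an intron of FKBP5 at chr6:35602082-35602096 on the minus strand, was the only exact match, and the others differ from the element at 1 half-site base. They lie in introns at chr6:35613610-35613624 on the minus strand (FKBP5), chr11:114220166-114220180 on the plus strand (ZBTB16), chr2:121267363-121267377 on the minus strand (TFCP2L1), chrX:107767844-107767858, chrX:107744638-107744652 and chrX:107744266-107744280 on the minus strand (TSC22D3), and chr16:84833382-84833396 on the plus strand (CRISPLD2).
FKBP5, exact: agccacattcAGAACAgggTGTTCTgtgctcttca
FKBP5, 1 mismatch: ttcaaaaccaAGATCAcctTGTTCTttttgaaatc
ZBTB16: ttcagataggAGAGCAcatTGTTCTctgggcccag
TFCP2L1: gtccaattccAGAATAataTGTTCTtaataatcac
TSC22D3, nearest the start: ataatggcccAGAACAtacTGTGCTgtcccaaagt
TSC22D3, middle: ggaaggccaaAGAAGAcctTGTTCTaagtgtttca
TSC22D3, farthest from the start: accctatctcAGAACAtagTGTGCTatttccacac
CRISPLD2: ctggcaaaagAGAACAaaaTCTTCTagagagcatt

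An exact match lay in 1 of the 10 target genes (10%) and in 227 of 16758 tested genes (1.35%). With at most 1 mismatch, matches lay in 5 of the 10 (50%) and in 3696 of the 16758 (22.1%). The target genes are long, with a median window of 76.4 kb against 33.8 kb. Per megabase they held 8.98 such matches against 5.04, but this rests on 8 matches, 3 of them in TSC22D3. The 3 genes that limma called lower, FKBP5, ZBTB16 and TFCP2L1, each held a match. TSC22D3 and CRISPLD2, which limma did not call and DESeq2 did, held matches too, and SGK1 held none in a window of 159 kb. In the 15 RefSeq promoters of 9 of these genes (GRCh38.p14, from 250 bases before to 50 after a start; ZBTB16 has no entry), no exact match was found, and 1 of all 35116 promoters held one. With at most 2 mismatches the SERPINA3 promoter held a match, that is 6.67% of the 15 against 1.41% of all promoters, and the half-site AGAACA alone on either strand was in 3 of the 15 (20%) against 14.8%. These matches describe letters in the sequence, and binding was not measured.

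**Figure D1:**
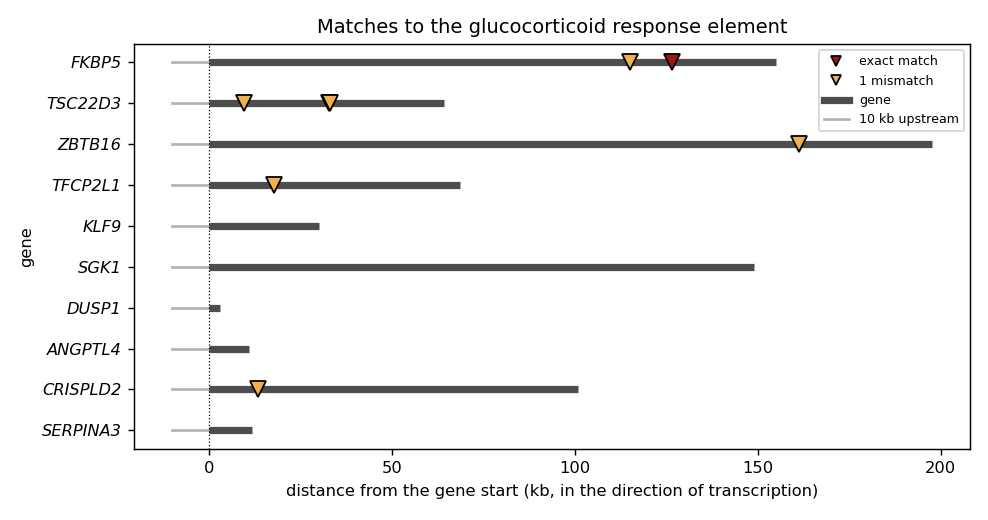
Position of each match to the glucocorticoid response element along the 10 target genes, in kilobases from the outermost annotated gene start in the direction of transcription (x axis), with 1 gene per row, the gene as a dark bar and the 10 kb upstream as a light line. The exact match of FKBP5 lies 126494 bases into the gene, and SGK1, DUSP1, KLF9, ANGPTL4 and SERPINA3 have no match with at most 1 mismatch.

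RNA of each gene is given as a normalised read count, that is the reads of the gene divided by the sample's size factor, and is not divided by gene length. Samples held between 7472418 and 28672630 reads on genes, and 3 reads correspond to 1.76 to 6.71 normalised counts. This floor reflects counting error alone. A gene was called when limma on log2(normalised count + 1) gave a Benjamini-Hochberg adjusted p under 0.05 over all 16988 genes and a change of at least 2-fold. Fold changes on the log2 scale are depleted minus control and understate the change of genes with low counts. With 3 samples per group, the smallest p of an exact permutation test is 0.1. The labels call the cells luminal ductal, and the study's paper describes MCF10A as basal-like. The marker ranges that follow pool both conditions and do not settle which description holds. PGR, ELF5 and KIT are not listed in the table, and ESR1 was between 4.58 and 206 normalised counts. GATA3 was between 186 and 1013, FOXA1 between 98.9 and 285, MUC1 between 87.2 and 2690 and KRT19 between 25.6 and 214. TP63 was between 8.24 and 1615 and KRT17 between 5882 and 123480. ITGA6 was between 3434 and 11751 and ITGB4 between 5894 and 14399. EPCAM was between 153 and 3990. The basal keratin KRT5 was between 562 and 38503, and the basal keratin KRT14 between 12.8 and 980. The luminal keratins KRT8 and KRT18 were between 2442 and 19305 and between 1716 and 9436. The epithelial cadherin CDH1 reached 20039. Over the 500 most variable genes, the first principal component (81.6% of the variance) separated the groups. The second (8.08%) set depleted replicate 1, where CDH1 was 609.6 against at least 12961 in the other 5 samples, apart from depleted replicates 2 and 3.

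FKBP5, ENSG00000096060, spans chr6:35573585-35728583 on the minus strand of hg38 and encodes a co-chaperone that binds Hsp90 and lowers the receptor's affinity for hormone, a negative feedback on the receptor. Its normalised counts were 13484, 10934 and 3839.5 in control replicates 1, 2 and 3 and 611, 610.4 and 512 in depleted replicates 1, 2 and 3. The depleted samples lay within 1.19-fold of each other, and the lowest control, replicate 3, was still 6.28 times the highest depleted sample. The log2 fold change was -3.84 (SE 0.46, 95% interval -4.89 to -2.79, limma adjusted p = 0.00268, n = 3 and 3), and FKBP5 stayed called in all 6 fits that left out 1 sample. Even in the depleted cells FKBP5 was read 229 to 931 times per sample, so its RNA was reduced to 5.44% to 6.49% of the control mean and not lost.

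ZBTB16 (ENSG00000109906, chr11:114059041-114256765, plus strand) encodes PLZF, a zinc finger repressor of transcription and one of the most responsive glucocorticoid targets in many cell types. It stood at 789.5, 451 and 387 normalised counts in the controls and at 3.66, 13.8 and 8.94 in the depleted samples. The groups were far apart, with the lowest control 28.1 times the highest depleted sample. The fall of 5.87 on the log2 scale (SE 0.56, 95% interval -7.15 to -4.60, limma adjusted p = 0.00115) placed ZBTB16 13th from the bottom of all 16988 genes, and it was called in all 6 left-out fits. The depleted values rest on 4, 21 and 4 reads, close to the floor, so the size of the fold is less precise than its direction. Genes on the opposite strand overlap ZBTB16, TSC22D3 and CRISPLD2, and whether the reads were counted by strand is not given in the sources used here.

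TFCP2L1 (ENSG00000115112, chr2:121216587-121285202, minus strand) encodes a grainyhead-like transcription factor of epithelia, known from kidney tubules, salivary ducts and pluripotent stem cells. It had 11705, 7996 and 3573 normalised counts in the controls and 65.0, 503 and 570.2 in the depleted samples. The groups did not overlap, and within the depleted group replicate 1 was the low sample. The log2 fold change was -4.70 (SE 0.81, 95% interval -6.56 to -2.85, limma adjusted p = 0.0122). Without depleted replicate 1 the log2 fold change was -3.69 (limma adjusted p = 0.00735). Without control replicate 1 it was -4.32 and missed the threshold (limma adjusted p = 0.0575).

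**Figure D2:**
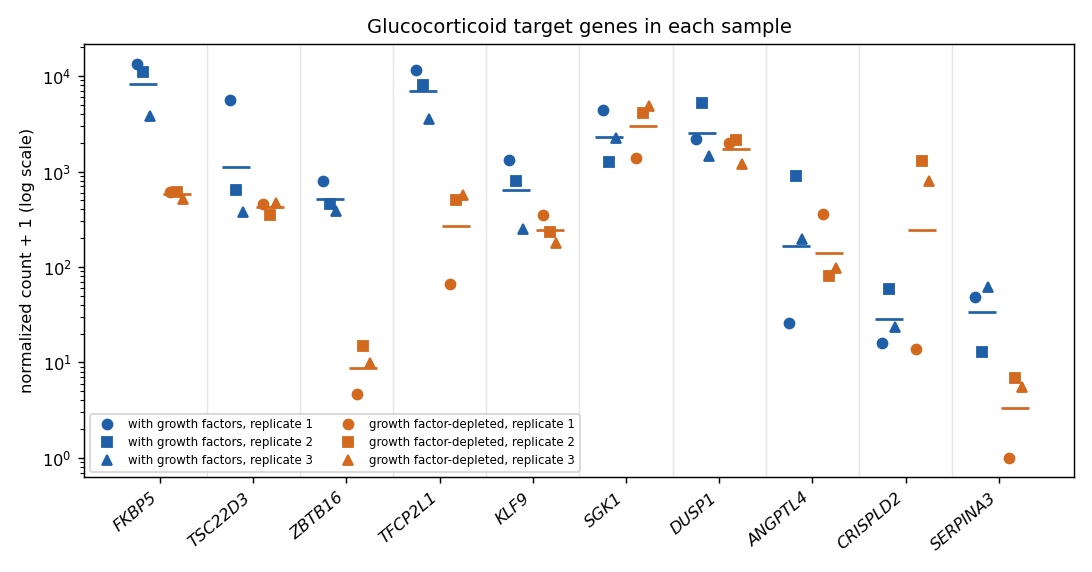
Normalised count + 1 (y axis, log scale) of the 10 target genes (x axis) in each of the 6 samples, with blue for control, orange for depleted, a marker shape per replicate number and a bar at the mean of the log values. FKBP5, ZBTB16, TFCP2L1 and SERPINA3 have every depleted sample below every control sample, and the other 6 genes overlap between groups.

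SERPINA3, encoding alpha-1-antichymotrypsin, a secreted protease inhibitor of the acute phase, was the remaining target gene whose groups did not overlap. It lies at chr14:94612384-94624055 on the plus strand (ENSG00000196136). It had 47.6, 11.7 and 61.0 normalised counts in the controls and 0, 5.90 and 4.47 in the depleted samples, the last from 0, 9 and 2 reads. The change, -3.33 on the log2 scale (SE 0.96, 95% interval -5.53 to -1.13), missed the threshold at a limma adjusted p of 0.085. DESeq2 on the recovered reads called it lower (adjusted p = 0.0119) and edgeR did not (adjusted p = 0.111). A readthrough gene on the same strand covers SERPINA3 and can share its reads, so its count is uncertain.

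KLF9 and TSC22D3 were lower on average but not past the threshold. KLF9 (ENSG00000119138, chr9:70384604-70414657, minus strand) encodes a Krüppel-like repressor that passes on hormone signals. Its normalised counts were 1311, 786 and 248 in the controls and 347, 231 and 179 in the depleted samples, so only control replicate 3 reached into the depleted range. The log2 fold change was -1.38 (SE 0.59, 95% interval -2.72 to -0.04, limma adjusted p = 0.235). Without control replicate 3 it was -2.06 and KLF9 was called lower (limma adjusted p = 0.0160). DESeq2 also called it (adjusted p = 0.0468).

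TSC22D3 (ENSG00000157514, chrX:107713221-107777342, minus strand) encodes GILZ, the glucocorticoid-induced leucine zipper that restrains NF-kB and AP-1. It reached 5679.7 normalised counts in control replicate 1 but 643 and 379.7 in control replicates 2 and 3, against 459, 352 and 465 in the depleted samples. A single control sample stood high, and control replicate 3 lay inside the depleted range. The log2 fold change was -1.40 (SE 0.86, 95% interval -3.37 to 0.57, limma adjusted p = 0.428), and -0.23 without control replicate 1. DESeq2 called TSC22D3 lower (adjusted p = 0.0306). The count sums all isoforms of the gene, and the hormone-induced short isoform was not measured apart.

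SGK1, DUSP1 and ANGPTL4 showed no call by limma, edgeR or DESeq2. SGK1 (ENSG00000118515, chr6:134169248-134318112, minus strand) encodes a kinase that promotes sodium transport and cell survival. Its normalised counts were 4440.2, 1245 and 2232 in the controls and 1376, 4109.7 and 4859 in the depleted samples. Its highest and lowest samples were split over both groups, and the log2 fold change was 0.38 (95% interval -0.96 to 1.73, limma adjusted p = 0.782), which leaves room for a change of either sign.

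DUSP1 (ENSG00000120129, chr5:172768096-172771195, minus strand) encodes MKP-1, the phosphatase that switches off p38 and JNK. It had 2176, 5236 and 1461 normalised counts in the controls and 2001, 2140.1 and 1205 in the depleted samples. The groups overlapped, with control replicate 2 alone above the rest, and the log2 fold change was -0.56 (95% interval -1.66 to 0.53, limma adjusted p = 0.591). ANGPTL4 (ENSG00000167772, chr19:8363289-8374370, plus strand), whose secreted product inhibits lipoprotein lipase, ranged 35.3-fold among the controls. It stood at 25.1, 886 and 197 normalised counts there and at 359.7, 79.3 and 96.1 in the depleted samples. With the highest and the lowest value both in controls, the log2 fold change was -0.23 (95% interval -2.89 to 2.42, limma adjusted p = 0.947).

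CRISPLD2 (ENSG00000103196, chr16:84819985-84920768, plus strand) encodes a secreted protein that binds lipopolysaccharide and is induced by glucocorticoids in airway smooth muscle. It went the other way in 2 samples. Its normalised counts were 15.0, 58.0 and 22.6 in the controls and 12.8, 1278 and 800.5 in the depleted samples. Depleted replicates 2 and 3 stood far above all controls while depleted replicate 1 lay below them. The log2 fold change was 3.10 (SE 1.52, 95% interval -0.38 to 6.58, limma adjusted p = 0.310). Without depleted replicate 1 it was 5.17 and CRISPLD2 was called higher (limma adjusted p = 0.00510), and DESeq2 on all 6 samples also called it higher (adjusted p = 2.2e-04).

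**Figure D3:**
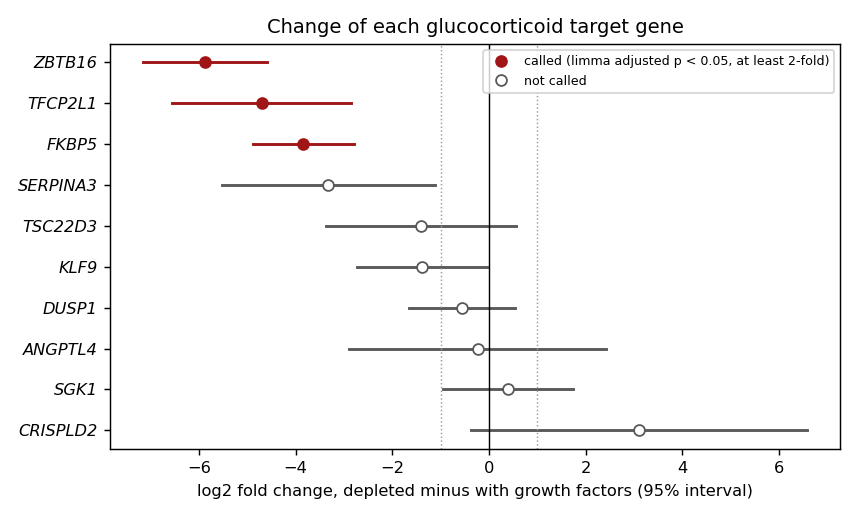
Log2 fold change of each target gene, depleted minus control (x axis, with the 95% interval of limma as a line), 1 gene per row. Filled red points are called and open points are not, and dotted lines mark a 2-fold change. ZBTB16, TFCP2L1 and FKBP5 are called at -5.87, -4.70 and -3.84.

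Because the target genes were chosen with earlier results of these data known, the counts that follow are a description and not a test. Counted over the 10 target genes, limma called 3 lower, against 1.97% of all genes tested, and 0 higher, against 4.36%. At an unadjusted p under 0.05, limma gave 5 lower, against 8.62% of all genes, and 0 higher, against 11.4%. Every depleted sample lay below every control sample for 4 of the 10, against 12.1% of all genes, and above for 0, against 13.5%. Their median log2 fold change was -1.39, with 8 below 0 and 2 above, and the median over all genes was -0.03. edgeR called 3 lower (1.7% of all genes) and 0 higher, where it called 683 of all 16988 genes higher. DESeq2 called 6 lower (4.87% of all genes), adding SERPINA3, KLF9 and TSC22D3, and 1 higher (7.6% of all genes), CRISPLD2.

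The controls differed among themselves more than the depleted samples did for FKBP5, TSC22D3, DUSP1, KLF9 and ANGPTL4. SGK1 spread about equally, 3.57-fold in the controls and 3.53-fold in the depleted samples. The depleted samples spread more for others. CRISPLD2 ranged 3.86-fold in the controls and 99.7-fold in the depleted samples, TFCP2L1 3.28-fold and 8.77-fold, and ZBTB16 2.04-fold and 3.76-fold. SERPINA3 had a depleted sample at 0. Control replicate 1 held the highest control value for 6 of the 10 target genes, and control replicate 3 held the lowest for 6. The summed normalised count of the 10 genes ranged from 12400.0 to 39673 in the controls and from 5235 to 9324 in the depleted samples. Without control replicate 1, 2 genes were called lower, and without control replicate 3, 4 were. Without depleted replicate 1, 3 were called lower and CRISPLD2 higher.

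Per kilobase of exon, the order of the target genes changed between the conditions. With growth factors DUSP1 was highest on average at 1469 normalised counts per kb, followed by FKBP5 at 886, TFCP2L1 at 828, TSC22D3 at 451, SGK1 at 265, KLF9 at 150.3 and ANGPTL4 at 149. ZBTB16 at 32.7, SERPINA3 at 8.02 and CRISPLD2 at 4.0 per kb were low even with hydrocortisone in the medium. After depletion DUSP1 was again highest at 885 per kb and SGK1 came next at 346, followed by CRISPLD2 at 87.5, TSC22D3 at 85.8, ANGPTL4 at 72.1, FKBP5 at 54.4, KLF9 at 48.5 and TFCP2L1 at 40.5. SERPINA3 at 0.69 and ZBTB16 at 0.53 per kb were last. Neighbours in the control order differed by less than the SD of the more variable gene, with the exception of ZBTB16 and SERPINA3. After depletion the steps from DUSP1 to SGK1, from SGK1 to CRISPLD2 and from TFCP2L1 to SERPINA3 exceeded that SD, and the others did not.

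**Figure D4:**
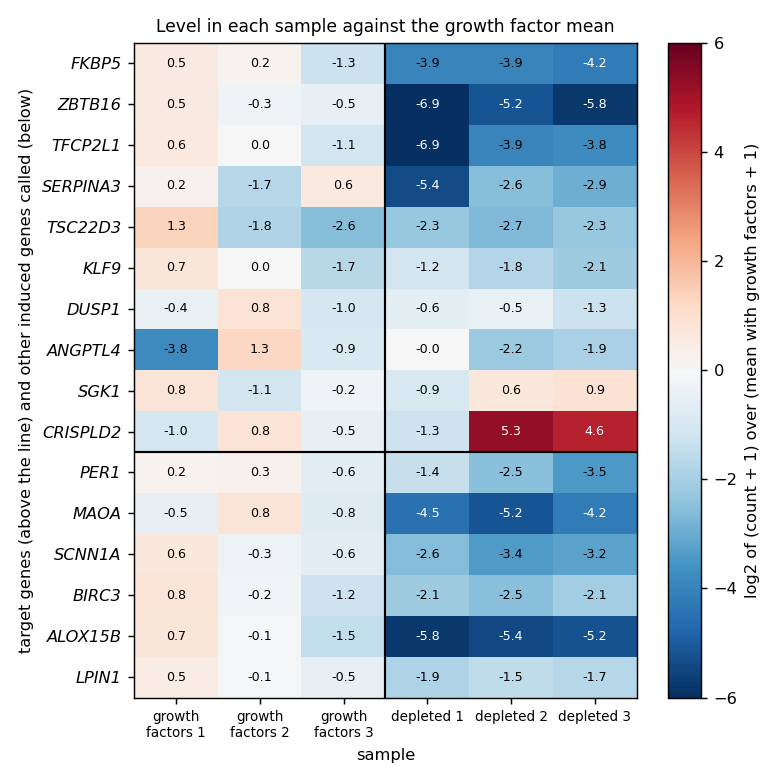
Log2 ratio of (normalised count + 1) in each sample to (the control mean + 1), with the 10 target genes above the line and the 6 other glucocorticoid-induced genes called lower below it, and the 6 samples as columns (blue lower, red higher). FKBP5, ZBTB16 and TFCP2L1 and the 6 genes below the line are blue in all 3 depleted samples, and CRISPLD2 is deep red in depleted replicates 2 and 3, at 5.28 and 4.61, against 0.84 in its highest control.

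RNA of the receptor itself was present in both conditions, and its protein was not measured in these samples. NR3C1, the glucocorticoid receptor, had 3898, 3650.4 and 5131 normalised counts in the controls and 4912, 3251 and 2862 in the depleted samples. The groups overlapped, and the log2 fold change was -0.23 (95% interval -0.95 to 0.50, limma adjusted p = 0.763). NR3C2, the mineralocorticoid receptor, which also binds cortisol, ranged from 86.6 to 565 in the controls and from 223 to 441 in the depleted samples (log2 fold change 0.86, limma adjusted p = 0.561). The log2 fold change of FKBP4, the Hsp90 partner that favours hormone binding, was -0.76 (limma adjusted p = 0.444), and without control replicate 3 it was -1.30 and called (limma adjusted p = 0.0353). That of NCOA2, a coactivator of the receptor, was -0.50 (limma adjusted p = 0.481).

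Of the 20 measured genes of the receptor and its machinery, 1 was called lower and 0 higher, against 1.97% and 4.36% of all genes. Their median log2 fold change was -0.08. An unadjusted limma p under 0.05 gave the same counts, 1 and 0, against 8.62% and 11.4% of all genes. Over all genes edgeR called 288 lower and 683 higher, and DESeq2 825 and 1287. In this list each called 1 lower and 0 higher. That gene was HSD11B2, the enzyme that turns cortisol into inactive cortisone inside the cell. It had 5281, 1039 and 808 normalised counts in the controls and 1.83, 20.3 and 20.1 in the depleted samples. The lowest control was 39.7 times the highest depleted sample, and the log2 fold change was -7.24 (SE 0.95, limma adjusted p = 0.00389), 3rd lowest of all genes tested. HSD11B1, the enzyme of the reverse reaction, is not listed in the table.

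A list of 30 other genes that glucocorticoids raise in various cells was read beside the 10. Of its 26 measured genes, limma called 6 lower and 0 higher, the median log2 fold change was -0.76, and in 9 the depleted values were all below the control values. Over all genes tested these shares were 1.97% called lower, 4.36% called higher and 12.1% with all depleted values below. Limma gave 9 lower and 0 higher at an unadjusted p under 0.05, against 8.62% and 11.4% of all genes. edgeR called 5 lower and 0 higher, and DESeq2 8 lower and 0 higher. Over all genes edgeR called 288 lower and 683 higher, and DESeq2 825 and 1287. The limma count ranged from 3 to 8 when 1 sample was left out, being 3 without control replicate 1, control replicate 2, depleted replicate 2 or depleted replicate 3 and 8 without control replicate 3, where 2 genes were also called higher.

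ALOX15B, MAOA and SCNN1A had the largest falls among these 6 and were called in every left-out fit. ALOX15B, a lipoxygenase that makes 15-HETE, went from 347, 199 and 72.8 normalised counts in the controls to 2.75, 3.93 and 4.47 (log2 fold change -5.21, SE 0.66, limma adjusted p = 0.00349). MAOA, the monoamine oxidase of the outer mitochondrial membrane, went from 326, 795 and 272 to 20.1, 11.8 and 24.6 (log2 fold change -4.44, SE 0.53, limma adjusted p = 0.00278). SCNN1A, the alpha subunit of the epithelial sodium channel, went from 11482, 6029.5 and 4875 to 1246, 715 and 796 (log2 fold change -2.96, SE 0.39, limma adjusted p = 0.00404). In none of the 3 did the groups come near each other, with the lowest control at least 3.91 times the highest depleted sample.

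The other 3 falls were smaller and less firm. PER1, a repressor of the circadian clock, had 754, 785 and 418 normalised counts in the controls and 249, 113 and 58.1 in the depleted samples (log2 fold change -2.40, limma adjusted p = 0.0364). BIRC3, an inhibitor of apoptosis, had 3589, 1892 and 895 against 489.7, 374 and 499 (log2 fold change -2.02, limma adjusted p = 0.0433). LPIN1, a phosphatidate phosphatase of triglyceride synthesis, had 6089.5, 4079.8 and 3183 against 1229, 1531 and 1337 (log2 fold change -1.66, limma adjusted p = 0.0184). All 3 had groups that did not overlap, yet PER1 was called in 2 of the 6 left-out fits, and BIRC3 and LPIN1 in 1 each, without control replicate 3. Among the genes not called, PDK4, which turns off pyruvate dehydrogenase, and ACSL1, which activates fatty acids, had the largest fitted changes at -1.61 (limma adjusted p = 0.252) and -1.57 (limma adjusted p = 0.393). Without control replicate 3, PDK4 was called lower at -2.42 (limma adjusted p = 0.0217).

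Among the inflammatory genes that glucocorticoids hold down, IL6, MMP1 and CCL20 were near the floor in a whole group. Of a list of 24, 11 are not listed in the table, CXCL3 was under the minimum mean of 10, and 12 were tested. Limma called 3 higher and 1 lower, against 4.36% and 1.97% of all genes. The median log2 fold change was 2.56, also with MMP1 and CCL20 set to their bounds. Without adjustment 6 were higher and 2 lower at a limma p under 0.05, against 11.4% and 8.62% of all genes. edgeR called 3 higher and 1 lower, and DESeq2 6 higher and 2 lower. Over all genes edgeR called 683 higher and 288 lower, and DESeq2 1287 and 825. IL6 rose from 0, 2.34 and 1.97 normalised counts to 22.9, 35.4 and 33.5 (log2 fold change 3.85, limma adjusted p = 0.0179). PTGS2, the inducible cyclooxygenase, rose from 43.9, 19.3 and 28.5 to 117, 281 and 373 (log2 fold change 2.95, limma adjusted p = 0.0182). All depleted samples of both genes lay above all controls.

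MMP1, the interstitial collagenase, was at 0 in all 3 controls and at 6.41, 101 and 93.9 normalised counts in the depleted samples, at least 23.8-fold higher against a floor of 3 reads per library (limma adjusted p = 0.0214). The chemokine CCL20 moved the other way, from 50.1, 129 and 20.7 to 0, 1.97 and 2.24, at least 17.5-fold lower against the same floor (limma adjusted p = 0.0167). MMP13, another collagenase, and the cytokine IL11 had the largest fitted changes among the 8 not called, at 3.56 (limma adjusted p = 0.160) and 3.07 (limma adjusted p = 0.258). Like CRISPLD2, both were high in depleted replicates 2 and 3, where MMP13 had 409 and 306 normalised counts and IL11 806 and 903, and not in depleted replicate 1, which had 10.1 and 30.2. The number called higher in the list was 0 without depleted replicate 2, 0 without depleted replicate 3 and 6 without depleted replicate 1.

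Of the other removed additions, EGF and cholera toxin were read through genes downstream of them. No list of insulin target genes was read. EGF signals through ERK, and of 16 ERK feedback and early target genes limma called 2 higher and 0 lower. Over all genes, 4.36% were called higher and 1.97% lower. The median log2 fold change of the list was 1.16. Without adjustment, 8 were higher and 1 lower at a limma p under 0.05, against 11.4% and 8.62% of all genes. Over all genes edgeR called 683 higher and 288 lower, and DESeq2 1287 and 825. In this list edgeR called 1 higher and 0 lower, and DESeq2 4 higher and 1 lower. The 2 were CCND1, cyclin D1, at 1355, 4257 and 735 normalised counts in the controls and 11808, 8902 and 10258 in the depleted samples (log2 fold change 2.66, limma adjusted p = 0.0313), and the stress response gene IER3 at 1031, 2123 and 1282 against 4084, 3208 and 5026 (1.52, limma adjusted p = 0.0385). Without control replicate 1 or without any 1 of the depleted replicates the list had 0 called higher, and without control replicate 2 it had 5.

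Cholera toxin raises cAMP, and of 11 measured cAMP and CREB target genes limma called 0 in either direction. Over all genes, 1.97% were called lower and 4.36% higher. The median log2 fold change of the list was 0.33. Without adjustment 1 was lower and 0 higher at a limma p under 0.05, against 8.62% and 11.4% of all genes. edgeR called 0 lower and 0 higher, and DESeq2 1 lower and 0 higher. Over all genes edgeR called 288 lower and 683 higher, and DESeq2 825 and 1287. Without depleted replicate 1, limma called the nuclear receptor gene NR4A1 higher (log2 fold change 2.66, limma adjusted p = 0.0438) and the phosphodiesterase gene PDE4B lower (-2.50, limma adjusted p = 0.0243).

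**Figure D5:**
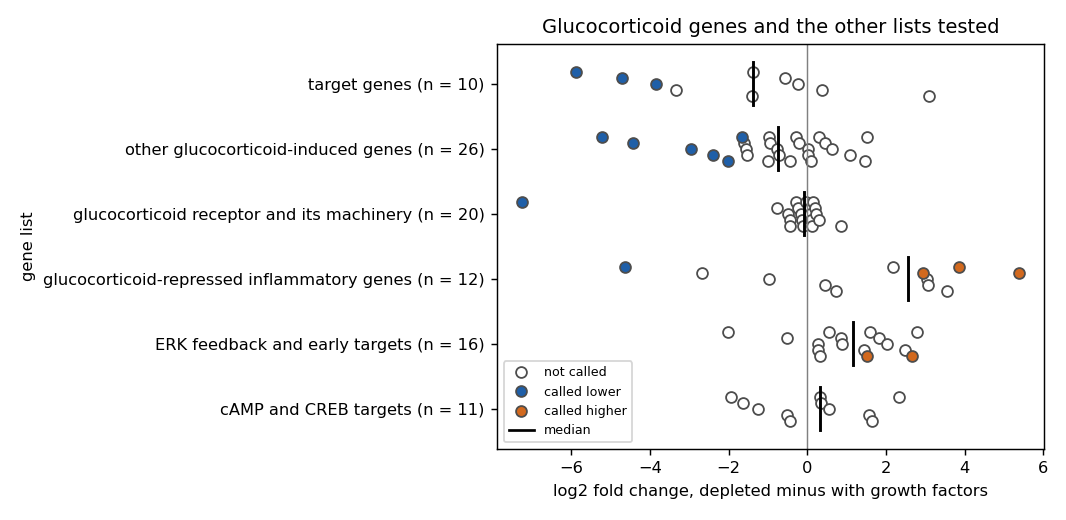
Log2 fold change, depleted minus control (x axis), of every measured gene in 6 lists (rows), with filled points for genes called by limma, open points for those not called and a black line at each median. The medians are -1.39 for the 10 target genes, -0.76 for the other induced genes, -0.08 for the receptor machinery, 2.56 for the repressed inflammatory genes, 1.16 for the ERK list and 0.33 for the cAMP list.

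Cell type markers moved in the same comparison as the target genes. The study's paper reports that this depletion induces an epithelial to mesenchymal transition, with VIM and FN1 raised in its RNA-Seq. Both genes are on the fibroblast list, and the presence of fibroblasts was not tested. Over all genes, limma called 4.36% higher and 1.97% lower, and 11.4% and 8.62% at an unadjusted p under 0.05. edgeR called 683 of all genes higher and 288 lower, and DESeq2 1287 and 825. Of 11 measured fibroblast markers, 9 were called higher and 0 lower. Their median log2 fold change was 5.85, also with LUM and PDGFRA at their bounds. For all 11 the depleted values were all above the control values, against 13.5% of all genes. Limma gave 11 higher and 0 lower at an unadjusted p under 0.05, and edgeR and DESeq2 called 10 and 9 higher. Over the 12 fibroblast markers in the table, the summed level was 5144 to 12038 normalised counts in the controls and 140667 to 210539 in the depleted samples, and THY1 was under the minimum mean, at 0 in 2 of the controls. Of 15 measured mammary epithelial markers, 2 were called lower, the basal regulator TP63 (log2 fold change -4.18, limma adjusted p = 0.0270) and the keratin KRT19 (-2.31, limma adjusted p = 0.0196), and 0 higher. At an unadjusted p under 0.05, 5 epithelial markers were lower and 3 higher by limma, and DESeq2 called 4 lower and 1 higher and edgeR 2 lower and 0 higher. The median log2 fold change of the epithelial markers was -0.98, with 11 below 0 and 4 above. The summed epithelial level was 64547 to 104205 in the controls and 59974 to 192984 in the depleted samples. In depleted replicates 2 and 3, the keratin KRT17 alone gave 61384.5 and 123480 of that sum. Of 5 measured endothelial and blood cell markers, CDH5 was called higher by limma, edgeR and DESeq2 (log2 fold change 3.37) and 0 were called lower by them, with 1 lower and 1 higher at an unadjusted limma p under 0.05. Over the list's 7 genes in the table, the summed level was 452 to 2696 in the controls and 361 to 2275 after depletion. VWF and the blood cell marker PTPRC were under the minimum mean. PTPRC had 1.25, 0 and 1.97 normalised counts in the controls and 10.1, 13.8 and 11.2 in the depleted samples. VWF had 1.25, 0.59 and 3.93 against 2.75, 11.1 and 13.4. Fewer cells that express a target gene and less of its RNA per cell cannot be told apart in these bulk samples, and the part of these marker shifts in the target gene results was not tested.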

How the data were processed

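RNA was measured in 6 MCF10A samples, 3 per condition, grouped by their labels. The authors removed ribosomal RNA, made stranded libraries, sequenced single-end reads, trimmed them with cutadapt 1.6, used TopHat2 for mapping to hg38 and HTSeq 0.6 with Gencode v22 for counting, per the submitters' processing notes and methods. The deposited values are a normalised signal, reads divided by DESeq2 1.8.1 size factors (R 3.2.0). Every value was a whole multiple of 1 read's worth (100% within 0.01), so reads were recovered. How the authors chose the 19198 genes is not given in the sources used here. Gencode v44 named 18913 of them.

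limma 3.58.1 (lmFit, eBayes with a trend; R 4.3.3) was run on log2(value + 1) for genes with a mean of at least 10, with Benjamini-Hochberg adjustment over all 16988. Alternatives were edgeR 4.0.16 and DESeq2 1.42.0 on recovered reads, pseudocounts 0.5 and 10, other filters, scalings and thresholds, a length and GC correction, a replicate block and each sample left out. The code was tested on simulated data. Exon length was the union of Gencode v44 exons. The target genes and lists were chosen with earlier results of these data known. Named were all target genes, 6 receptor genes where measured, every called gene and the 2 largest uncalled changes of the induced and repressed lists, and the 2 largest called changes of the ERK and cAMP lists. Marker genes, NR4A1 and PDE4B were named after their values were seen. Tables were made in Python 3.11.15 (pandas 2.3.3, numpy 2.4.6) and figures with matplotlib 3.10.9.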

Additional observations from a re-analysis of the deposited data

How the results depend on the processing

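Among the genes named from the target, receptor, induced, repressed and ERK lists, no called gene changed direction under any of the 19 alternatives that could be run for it. FKBP5 and ZBTB16 were called under all 19 and TFCP2L1 under 18. Of the 10 target genes 3 were called lower. DESeq2 called 6, quantile normalization 4 and an adjusted p under 0.1 4, and leaving out 1 sample gave 2 to 4. None was called higher by limma, against 1 by DESeq2 and 0 to 1 with 1 sample left out (1 without depleted replicate 1). Their median log2 fold change stayed between -1.99 and -1.34 under the 13 other settings and between -2.12 and -1.21 with 1 sample left out. Using no filter, limma without the trend, the replicate block and an adjusted p under 0.1 leave fold changes as they are. These settings could not have moved the median or a direction, and an adjusted p under 0.1 cannot remove a call. Over all genes, 335 were called lower and 741 higher, against 825 and 1287 by DESeq2. An adjusted p under 0.1 gave 604 lower and the length and GC correction 521 lower. Leaving out 1 sample gave 126 to 1102 lower and 313 to 1372 higher. The upper ends came without control replicate 3, and the lower ends without depleted replicates 3 and 2. No scaling moved the median of all genes by more than 0.07.

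With the replicate number as a replicate block, 3 target genes were called lower and 278 of all genes, and with the block and the length and GC correction 464 were called higher. Deviations of same-numbered samples correlated at -0.07, -0.28 and -0.32, and no sample correlated best with its own number, so the numbers do not pair the samples. Counts of a few reads limit ZBTB16, SERPINA3 and the inflammatory genes.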
